A study of Mus musculus with 6 samples.

Results

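The 9 desmosome genes examined here encode the desmosomal cadherins Dsc2, Dsc3, Dsg2 and Dsg3, the armadillo proteins Jup, Pkp1, Pkp2 and Pkp3, and the plakin Dsp. They were chosen by name as structural components of the junction, and all 9 were found among the 20660 genes matched on the array, through 13 probes. Desmosomes are spot-like junctions that tie the keratin filaments of neighbouring epithelial cells together. Their cadherins, desmocollins and desmogleins, meet between the cells; plakoglobin (Jup) and the plakophilins bind the cadherin tails inside the cell, and desmoplakin (Dsp) links this plaque to keratins. In the mammary gland desmosomes join luminal and basal cells, and epithelia differ in which desmocollin, desmogleins and plakophilins they use.

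Gene expression was measured in freshly sorted mouse mammary cells with one-colour arrays, with 3 biological replicates per group and no culture or treatment. The fetal group held E18.5 cells sorted as CD31-CD45-Ter119-EpCAM++CD49f+. The adult basal group held CD31-CD45-Ter119-BP-1- cells of 8 to 12 week old mice that were EpCAM+CD49f+. All 6 samples came from female C57Bl6J mice of no stated transgene or deletion, and the sources used here do not say how many animals made up a sample. The groups differed in age, in the EpCAM and BP-1 gates, and in tissue digestion, which was overnight for adult and shorter for fetal glands, so these cannot be told apart. Between 76.4% and 83.4% of the probes on each array had a spot well above background by the scanner software, and no spot was saturated. Levels below are quantile normalized log2 signals, and differences are fetal minus adult basal on that log2 scale, with 1 meaning 2-fold. A gene was called when its probe reached an adjusted p of 0.05 or less after Holm's correction of limma p-values over all 20448 probes tested and differed by at least 2-fold. The precision rests on 3 arrays per group. The limma p-values set a difference against the spread between those samples, with each probe's variance drawn towards that of all probes tested.

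The fetal cells had more Dsc2 transcript than the adult basal cells, a call that held in all 18 alternative settings. Dsg3 was also called higher in fetal cells but lost the call in 12 of the 16 alternatives in which it was tested. No desmosome gene was called higher in the adult cells in the main analysis, whereas Dsp was in 6 of 18 alternatives. Of all probes tested, 11.1% were called in either direction, 5.92% with the higher signal in fetal cells and 5.18% with the higher signal in adult basal cells. Of the 9 genes, 2 were called, both higher in fetal cells. With Benjamini-Hochberg in place of Holm adjustment, 5 of the 9 passed with a 2-fold difference, namely Dsc2, Dsc3, Dsg3 and Pkp2 higher in fetal cells and Dsp higher in adult basal cells. The share of all probes under that rule was 30.0%, with 16% higher in fetal and 14% higher in adult basal cells. The groups did not overlap for 8 of the 9 genes, 6 of them higher in fetal and 2 higher in adult cells; over all probes tested the groups did not overlap for 69%, with 34.1% higher in fetal and 35% higher in adult cells. The median difference of the 9 genes was 0.71, against -0.03 over all probes tested, and their median absolute difference was 1.06 against 0.55. These summaries are descriptions only, because Dsc2, Dsc3 and Dsg3 passed the filter on low signals through the fetal arrays alone. The other 6 genes passed it in both groups. As the samples were sorted populations measured in bulk, fewer cells that express a gene and less RNA per cell cannot be told apart.

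**Figure D1:**
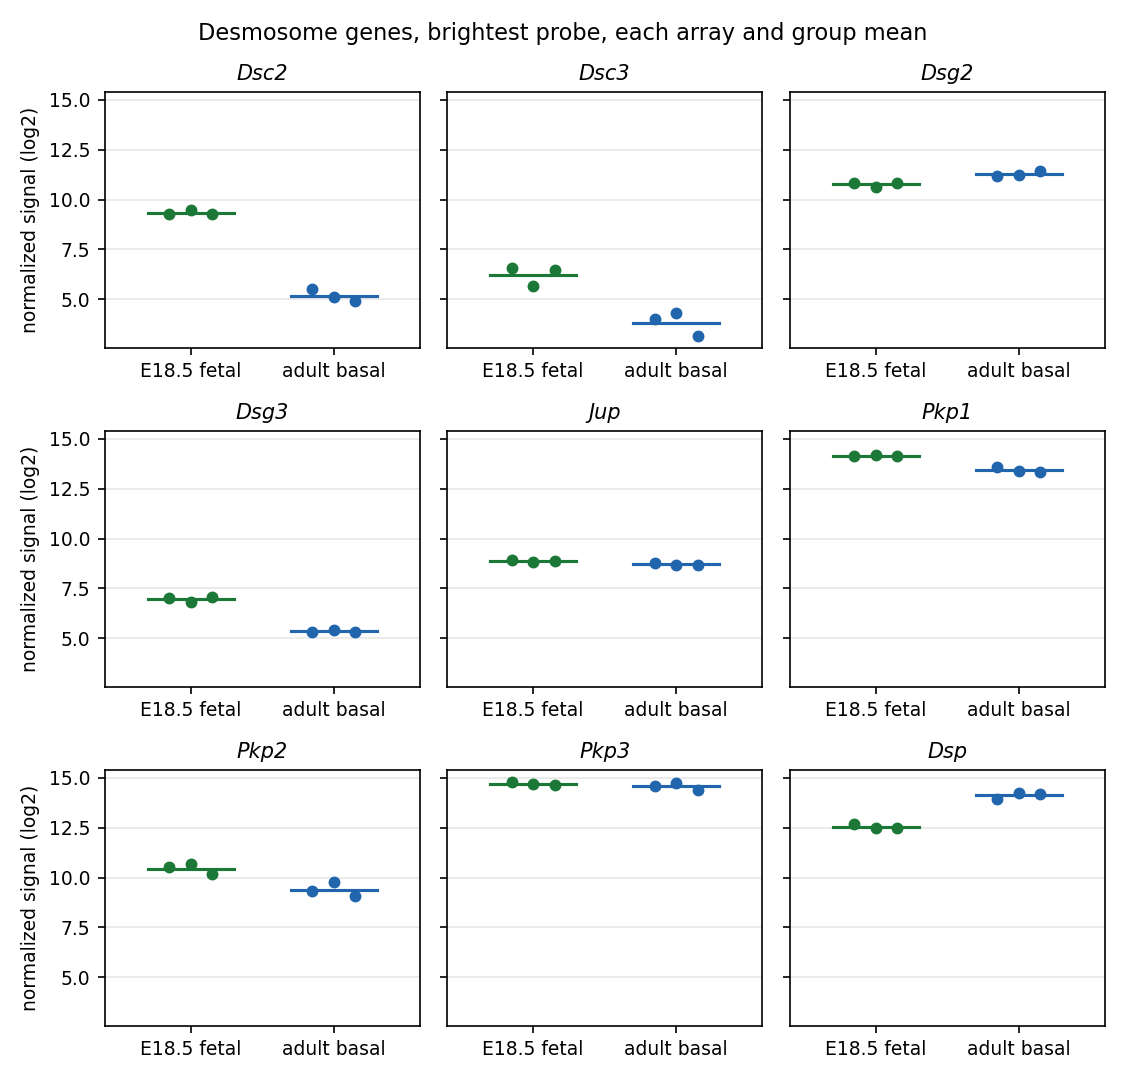
Normalized signal (log2) of the brightest probe of each desmosome gene on each array, with E18.5 fetal arrays in green, adult basal arrays in blue and horizontal lines at the group means. The fetal and adult arrays stand apart most for Dsc2, at means of 9.34 and 5.18, and overlap only for Pkp3.

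The desmocollins are the cadherins named for Dsc, and Dsc2 is the form found in most epithelia with desmosomes, including simple ones. The normalized Dsc2 signal was 9.27, 9.46 and 9.28 in fetal replicates 1 to 3 and 5.54, 5.12 and 4.90 in adult basal replicates 1 to 3. Every fetal array lay above every adult array, with a gap of 3.74 between the nearest 2 arrays of the groups. The difference was 4.15 (SE 0.17), a 17.8-fold higher signal in fetal cells, with a Holm-adjusted p of 0.00076. This was the largest difference among the brightest probes of the 9 genes, and by absolute size it ranked 628 of the 20448 probes tested. It was called in all 18 alternative settings, although background correction by normexp reduced it to 2.72, and it was 4.06 among the arrays of 1 slide and 4.25 among those of the other.

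For Dsc3, the desmocollin of the basal layers of stratified epithelia, the brightest probe read 6.56, 5.66 and 6.45 in fetal replicates and 4.0, 4.31 and 3.16 in adult basal replicates, and it was well above background on all 3 fetal arrays but on 2 of the 3 adult arrays. The groups did not overlap, and the difference was 2.40 (SE 0.35), but the Holm-adjusted p was 1 and the Benjamini-Hochberg-adjusted p 0.00066. The second Dsc3 probe, well above background on 1 of 3 adult arrays, differed by 4.61 with a Holm-adjusted p of 0.57. Both probes therefore read higher in every fetal array, with sizes that differed between the probes, and neither passed the Holm threshold. The size also depended on background handling. Under normexp Dsc3 fell below the filter and was not tested. There Dsc2 differed by 2.72 and the log2 ratio of Dsc3 over Dsc2 by -1.84, so the difference of the brightest Dsc3 probe was smaller than 2.40.

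Among the desmogleins, Dsg3, a basal-layer desmoglein of skin and oral mucosa and the antigen of pemphigus vulgaris, was called higher in fetal cells. Its signal was 7.03, 6.83 and 7.05 in fetal replicates and 5.29, 5.42 and 5.34 in adult basal replicates. The groups were separated by 1.41, and the difference was 1.62 (SE 0.11), or 3.07-fold, with a Holm-adjusted p of 0.019. That call was close to the threshold. It was lost in 12 of the 16 alternatives in which Dsg3 was tested, including the removal of any 1 array, with the difference between 1.57 and 2.04 in those 16. Under normexp and the offset of 16 its probe fell below the filter, and the difference was smaller. There the log2 ratio of Dsg3 over Dsg2 differed by 1.28 and 1.82, against 2.12, while Dsg2 itself differed by -0.52 and -0.50. The adjusted p rose to 0.32 without fetal replicate 1, and to between 0.055 and 0.26 without any other single array. The second Dsg3 probe, well above background on 2 of 3 adult arrays, differed by 2.46 with a Holm-adjusted p of 1 and a Benjamini-Hochberg-adjusted p of 0.00044. Within slides the Dsg3 difference was 1.71 and 1.52.

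Dsg2, the widely expressed desmoglein of simple epithelia and heart, went the other way by a small amount. Its brightest probe read 10.85, 10.62 and 10.84 in fetal replicates and 11.16, 11.24 and 11.43 in adult basal replicates. All 3 adult arrays were higher, and the difference was -0.51 (SE 0.12), a 1.42-fold higher signal in adult cells. It did not pass the Holm threshold (adjusted p of 1), and its Benjamini-Hochberg-adjusted p was 0.0079 at less than 2-fold. The second Dsg2 probe differed by -0.34.

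**Figure D2:**
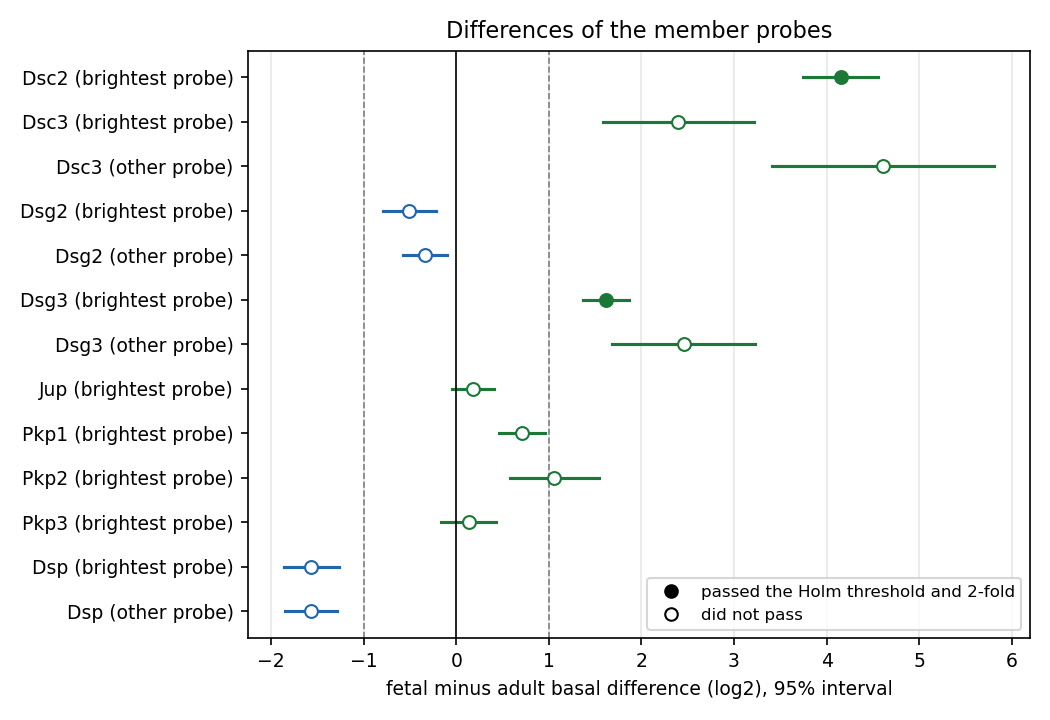
Fetal minus adult basal difference (log2) of each of the 13 probes of the desmosome genes, with bars for the 95% interval and dashed lines at 2-fold. Filled points passed the Holm threshold and 2-fold, as did 1 probe each of Dsc2 and Dsg3; the intervals of Jup and Pkp3 span 0.

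The desmosomal cadherin genes lie next to each other in 1 cluster, in the order Dsc3, Dsc2, Dsc1, Dsg1c, Dsg1a, Dsg1b, Dsg4, Dsg3 and Dsg2 in the RefSeq gene table, with no other protein-coding gene between them. The called genes, Dsc2 and Dsg3, are separated in that order by 5 genes that were not called or not tested. Dsc1, next to Dsc2 and known from the upper layers of epidermis, differed by 0.59 with a Holm-adjusted p of 1. Dsg1a, Dsg1b, Dsg1c and Dsg4, desmogleins of epidermis and hair, were too dim in both groups to be tested. Of these, Dsg1a stood well above background on 1 of 3 fetal arrays and on 0 of 3 adult arrays. Dsg2, at the end of the order beside Dsg3, was the only tested cadherin gene of the cluster with the higher mean in adult cells.

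**Figure D3:**
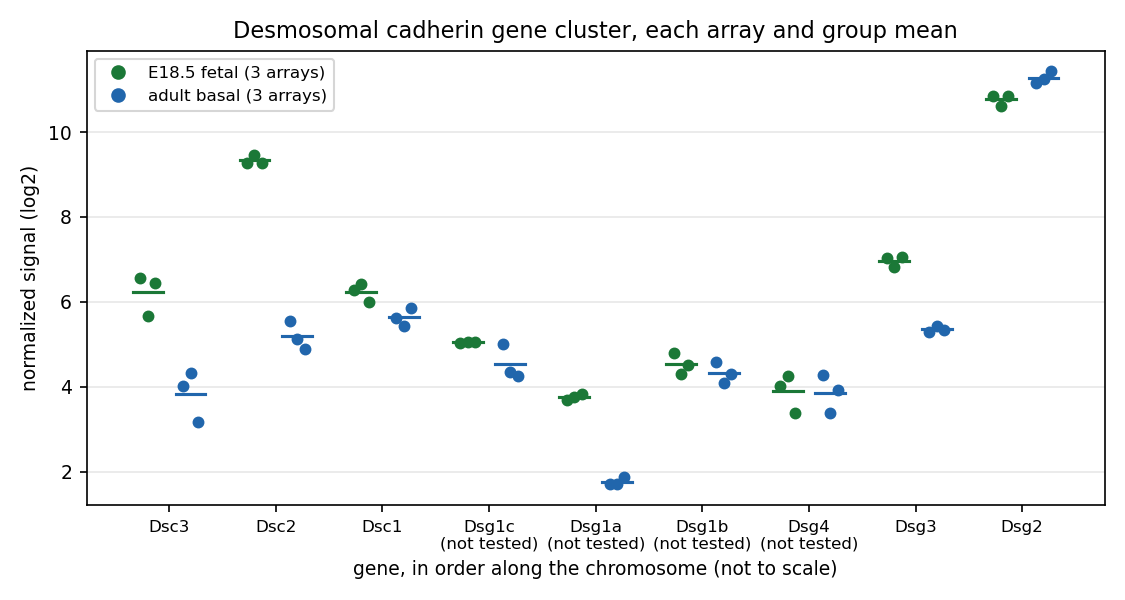
Normalized signal (log2) of the cadherin genes on each array, in their order along the chromosome and not to scale, with fetal arrays in green, adult basal arrays in blue and lines at group means. Heights are to be compared within a gene and not between genes, and the widest separation among the 5 tested genes is at Dsc2.

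None of the 4 armadillo genes of the plaque was called in limma with Holm adjustment, whereas 1 passed with Benjamini-Hochberg adjustment at 2-fold. An unadjusted p under 0.05 was reached by 2 of the 4 and by 64.7% of all probes tested, a share to hold beside each such count below. Plakophilin 1 (Pkp1), abundant in stratified epithelia, read 14.16, 14.20 and 14.12 in fetal replicates and 13.59, 13.40 and 13.35 in adult basal replicates. All 3 fetal arrays were higher, by 0.71 (SE 0.11) on average and thus by less than 2-fold, with a Benjamini-Hochberg-adjusted p of 0.00078 and a Holm-adjusted p of 1. Plakophilin 2 (Pkp2), the plakophilin of simple epithelia and heart, read 10.52, 10.67 and 10.16 in fetal replicates and 9.32, 9.76 and 9.09 in adult basal replicates. Its groups did not overlap and its difference was 1.06 (SE 0.21), which passed with Benjamini-Hochberg adjustment (p of 0.003) but not with Holm adjustment (p of 1). That difference was close to 2-fold. It lay between 0.91 and 1.25 in the 18 alternatives, so it fell below 2-fold in some, and was 1.31 and 0.65 within slides. Plakophilin 3 (Pkp3), which occurs in most epithelial desmosomes, read 14.81, 14.69 and 14.64 in fetal replicates and 14.59, 14.77 and 14.39 in adult basal replicates. It was the only desmosome gene of the 9 whose groups overlapped, and its difference of 0.13 had a 95% interval from -0.16 to 0.43. On 1 slide the Pkp3 difference was 0.32 and on the other -0.10, while the other 8 genes kept their sign on both slides.

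Plakoglobin (Jup), which binds both desmosomal and classical cadherins, read 8.95, 8.81 and 8.88 in fetal replicates and 8.77, 8.69 and 8.65 in adult basal replicates. The fetal arrays lay just above the adult arrays, with a gap of 0.05. The difference was 0.18, with a 95% interval from -0.05 to 0.40 and a Benjamini-Hochberg-adjusted p of 0.15.

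Desmoplakin (Dsp), the obligate plaque protein that binds keratins, was the desmosome gene of the 9 with the largest difference towards the adult cells. It read 12.71, 12.47 and 12.49 in fetal replicates and 13.93, 14.23 and 14.19 in adult basal replicates. Every adult array exceeded every fetal array by at least 1.22. The difference was -1.57 (SE 0.13), a 2.96-fold higher signal in adult basal cells, with a Holm-adjusted p of 0.078 and a Benjamini-Hochberg-adjusted p of 3.5e-05. The second Dsp probe gave the same difference of -1.57, with a Holm-adjusted p of 0.053, so both probes missed the threshold narrowly. Dsp was called in 6 of 18 alternative settings, among them normalization to the 75th percentile (adjusted p of 0.037) and variance estimation with a trend and robust fit (adjusted p of 0.0058). It was not called in the other 12, where the adjusted p was 0.45 without the low-signal filter, 0.43 with slide as a block and between 0.17 and 0.92 when any 1 array was left out. The difference lay between -1.66 and -1.51 in all 18. Within slides it was -1.36 and -1.76.

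The means of Jup and Dsp, whose proteins bind each other in the plaque, differed in opposite directions, and neither gene was called. The 250 bases before the annotated start of each gene are shown to set their promoters side by side, from RefSeq on GRCm38.p6, written 5′ to 3′ on the strand of the gene. The cadherin genes were left out of this step beforehand, and 2 of the remaining genes matched an entry of the promoter table. Capitals mark the GC box GGGCGG or its reverse complement, the kind of site bound by Sp and Klf factors.
Dsp, chr13:38151044-38151293, plus strand: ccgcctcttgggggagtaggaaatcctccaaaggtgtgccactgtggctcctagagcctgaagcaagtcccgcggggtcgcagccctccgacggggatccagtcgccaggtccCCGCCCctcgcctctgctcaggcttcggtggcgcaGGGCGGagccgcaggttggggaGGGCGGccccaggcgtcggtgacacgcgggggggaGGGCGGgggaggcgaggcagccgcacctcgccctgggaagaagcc
Jup, chr11:100397791-100398040, minus strand: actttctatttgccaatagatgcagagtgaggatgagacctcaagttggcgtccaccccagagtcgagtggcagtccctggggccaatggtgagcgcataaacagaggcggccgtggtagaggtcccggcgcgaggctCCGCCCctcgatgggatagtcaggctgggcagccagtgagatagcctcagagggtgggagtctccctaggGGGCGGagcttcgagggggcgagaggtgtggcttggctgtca
The Dsp window held 4 GC boxes, which began 137, 102, 80 and 45 bases before the start, and the Jup window held 2, at 112 and 42 bases. A GC box on either strand was present in 32.7% of 32851 promoter windows of that length. The same windows of Dsp and Jup held no match on either strand to CAGGTG, the E-box read by Snail and Zeb factors (17.2% of all windows), to AACNGGTT, a grainyhead-type site (1.79%), or to TGANTCA, the AP-1 site (6.75%). No match overlapped another, and the matches describe these letters alone.

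Ratios between related genes on the same array do not depend on a scaling factor of that array. For 6 pairs, the mean log2 ratio was compared between groups by an exact permutation test, which with 3 against 3 arrays cannot give a p below 0.1. The log2 ratio of Dsg3 over Dsg2 was -3.80 ± 0.01 in fetal and -5.93 ± 0.14 in adult basal cells (SD, n = 3), a difference of 2.12 (two-sided exact p of 0.1). Background correction by normexp lowered that difference to 1.28. The log2 ratio of Jup over Dsp was -3.67 ± 0.08 in fetal and -5.42 ± 0.22 in adult basal cells (SD, n = 3), a difference of 1.74 (exact p of 0.1). Among the plakophilins, the Pkp3 over Pkp2 ratio was lower in fetal cells by 0.93, at means of 4.27 and 5.19, and the Pkp1 over Pkp3 ratio higher by 0.58, at means of -0.55 and -1.14 (exact p of 0.1 for each). The Dsc3 over Dsc2 ratio, on the brightest probes, had means of -3.11 in fetal and -1.36 in adult cells (exact p of 0.1). Its direction depends on the Dsc3 probe, since the second Dsc3 probe differed by 4.61, more than Dsc2 (4.15). The ratios that hold Dsc2, Dsc3 or Dsg3 are descriptions only, since these genes passed the low-signal filter through the fetal arrays. The brightest Dsc3 probe was clear of background on 2 of 3 adult arrays. The groups of these 5 pairs did not overlap, whereas those of Pkp1 over Pkp2 did (difference of -0.35, exact p of 0.2). After Benjamini-Hochberg adjustment over the 6 pairs the p was 0.12 for the first 5 and 0.2 for Pkp1 over Pkp2.

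**Figure D4:**
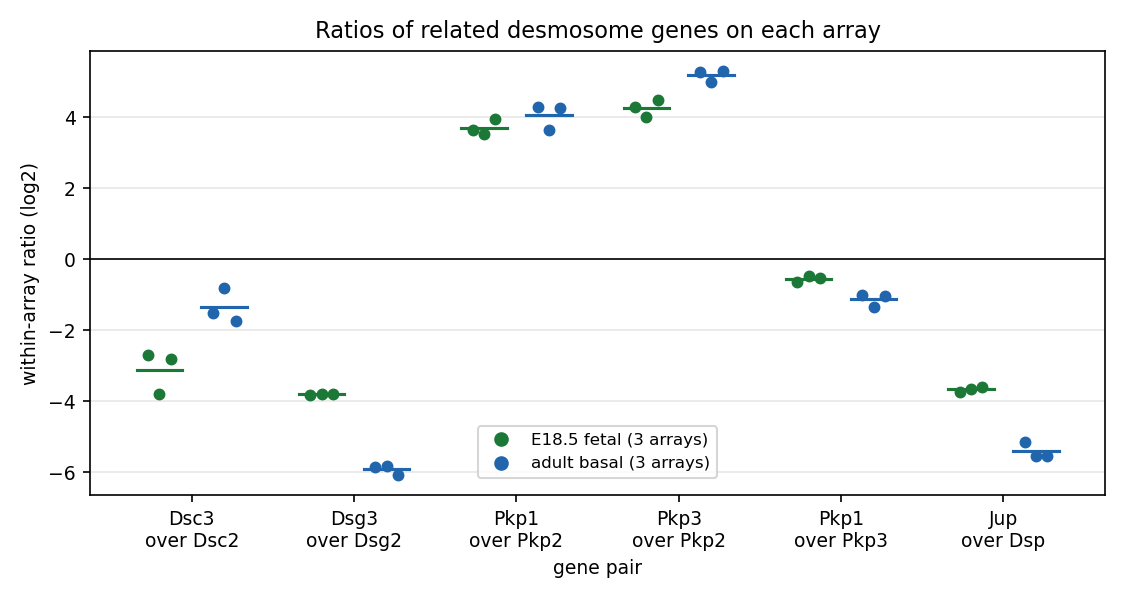
Log2 ratio of 6 pairs of related desmosome genes on each array, with fetal arrays in green, adult basal arrays in blue and lines at group means. The 3 fetal and 3 adult arrays are separate for 5 pairs and overlap for Pkp1 over Pkp2.

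The pattern of Dsc2, the called gene with the largest difference, was compared with those of 19775 other probes well above background on every array. The 3 genes with the highest Pearson correlation over the 6 arrays were Rasal1 (r of 0.9999), Gtf2a2 (0.9998) and Lrrc56 (0.9997). These correlations follow mainly the step between the 2 groups, and the genes differed by 2.37, 0.88 and 2.39 in that order. No desmosome gene was called lower in fetal cells, so no gene of the opposite pattern was sought.

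The keratins that Dsp tethers and the cell-matrix counterpart of the desmosome were described through lists of related genes. Of 7 basal and stratified keratins tested, 3 were called lower in fetal cells and none higher. Krt5 was lower by a difference of -3.90 (Holm-adjusted p of 0.0039), Krt15 by -3.85 (0.0024) and Krt17 by -3.08 (9.1e-05). Krt6a, a keratin of hair follicle companion layer and wounded skin, had a difference of 2.09 (adjusted p of 0.22). Krt14 differed by -1.20 and Krt16 by -0.15, each with overlapping groups. Krt6b differed by 0.11 on its brightest probe and by -1.24 on its second probe. The simple keratins, tested for 5 genes, had no call (3 passed with Benjamini-Hochberg adjustment, all higher in adult cells, and 5 had an unadjusted p under 0.05), and Krt8 and Krt18 differed by 0.44 and 0.58. Of 9 hemidesmosome components, 4 fell in fetal relative to adult cells, namely Lamb3 (-5.51), Lama3 (-3.85), Dst (-3.78) and Col17a1 (-2.51), which encode chains of the laminin ligand, a plakin and a transmembrane collagen. Itga6, the CD49f antigen on which both groups were sorted, differed by 0.01.

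Other plakins split by direction. Evpl, envoplakin, which joins desmosomes and the cornified envelope, was 2.45 higher in fetal cells (Holm-adjusted p of 0.0066), while Dst was lower, and the other 4 of 6 were not called. Ppl, the partner of envoplakin, had a difference of 1.72 (adjusted p of 0.45). Among 8 other desmosome components, 4 were tested and none was called, although 2 passed with Benjamini-Hochberg adjustment, both higher in adult cells, and 3 had an unadjusted p under 0.05. Perp, a membrane protein needed for desmosome assembly in stratified epithelia, differed by -1.08 (adjusted p of 0.16) and Cdsn, corneodesmosin, by -2.68 (adjusted p of 0.23). Pkp4, a relative of the plakophilins, differed by 0.24.

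None of 11 adherens junction components was called in either direction; with Benjamini-Hochberg adjustment 2 passed as higher in fetal and 3 as higher in adult cells, and 9 had an unadjusted p under 0.05. Cdh1, E-cadherin, differed by 0.76 and Cdh3, P-cadherin, by -1.31 (Holm-adjusted p of 0.097). Ctnnb1, beta-catenin, differed by 1.13 and Nectin4, a nectin, by 3.63 (adjusted p of 0.4). Of 5 genes of desmosome assembly and shedding none was called, 2 passed with Benjamini-Hochberg adjustment and 4 had an unadjusted p under 0.05. Prkca, a kinase that loosens desmosomes, had a difference of -1.37 (adjusted p of 0.11).

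Transcription factors known in stratified epithelia were called, through their brightest probes, in 1 direction only. Of 9 tested, Grhl3, a grainyhead factor of the skin barrier, was higher in fetal cells by 4.59 (Holm-adjusted p of 5e-05) and Klf5 by 2.12 (0.029). Grhl1, a grainyhead factor known to act on desmosomal cadherin genes in skin, differed by 2.36 (adjusted p of 0.072) and Ovol1 by 2.54 (adjusted p of 0.078). Trp63, the master factor of basal epithelia, differed by -0.08 on its brightest probe and by -3.06 on a second probe, which was called. Of 4 tested repressors of epithelial junction genes, 2 were called lower in fetal cells, Snai2 (-2.50) and Zeb1 (-2.55, with 1 of 3 fetal arrays well above background).

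**Figure D5:**
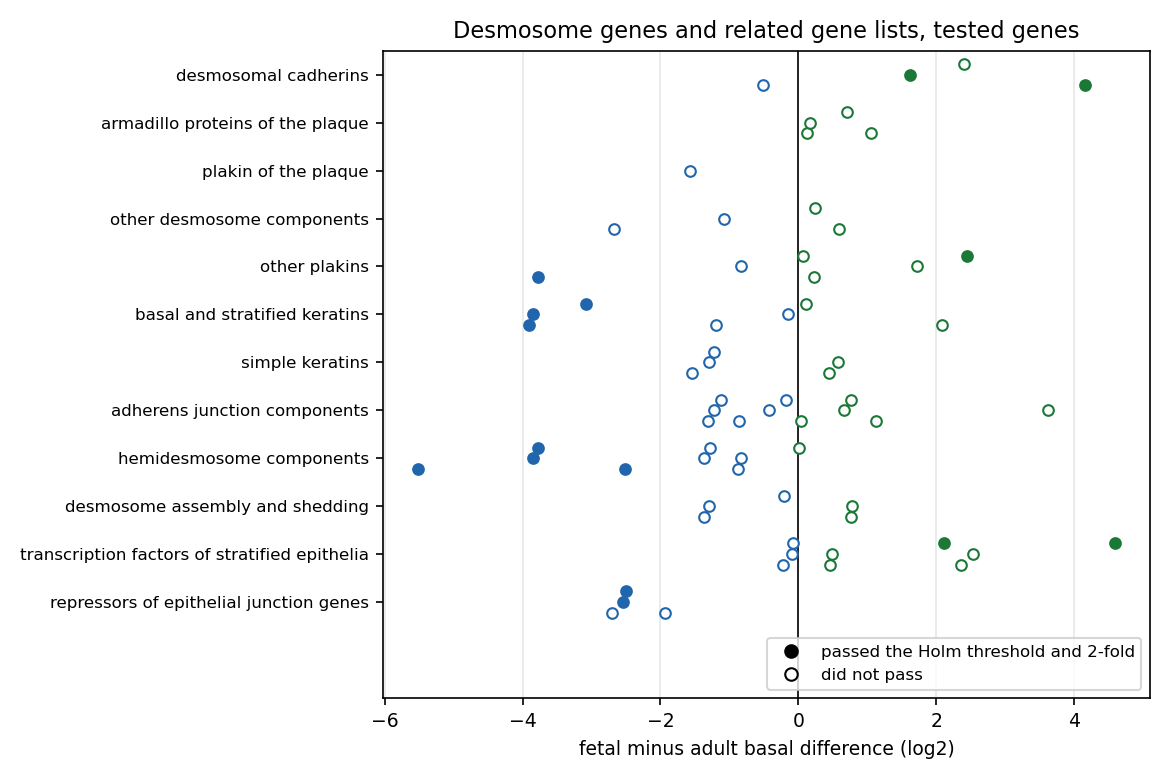
Fetal minus adult basal difference (log2) of the brightest probe of every tested gene in the desmosome lists and the related lists, with filled points for genes that passed the Holm threshold and 2-fold. Calls in the keratin, hemidesmosome and repressor lists lie to the left, at higher adult signal, and those of the cadherin and transcription factor lists to the right.

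Markers of cell types moved between the groups together with these genes, and their part in the desmosome results was not tested. Of 9 basal and myoepithelial markers, 7 were called lower in fetal cells and none higher, led by Myh11 (-8.63). The other 2 were Krt14 and Trp63. Krt14 differed by -1.20 with overlapping groups (limma, Benjamini-Hochberg-adjusted p of 0.077), and Trp63 by -0.08 on its brightest probe. The summed signal of the 9, given as log2, was 16.23, 16.07 and 15.85 in fetal and 20.05, 19.98 and 19.99 in adult basal replicates, with Acta2 the brightest. Of 11 luminal markers tested, 6 were called higher in fetal cells and none lower, led by Elf5 (7.55). Krt19 differed by -1.22 and passed as higher in adult cells with Benjamini-Hochberg adjustment. Prlr differed by -0.35 on its brightest probe and by 1.85 on a second, called probe. Esr1, also listed, was too dim to be tested on its brightest probe, which differed by -1.06. A second Esr1 probe, well above background on 1 of 3 fetal arrays, differed by -3.58 (limma, Holm-adjusted p of 0.25, Benjamini-Hochberg-adjusted p of 8.6e-05). A further Esr1 probe, not tested, differed by -1.58. The summed signal of the luminal list was 17.76, 17.81 and 17.45 in fetal and 16.98, 16.91 and 16.90 in adult replicates, with Krt18 the brightest. Through their brightest probes, markers of both kinds were well above background on all arrays of both groups. Krt5 had a mean level of 13.21 in fetal and 17.12 in adult cells, and Krt18 a mean level of 16.94 in fetal and 16.36 in adult cells.

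Epidermal cells are of particular relevance because Dsc3 and Dsg3 are abundant in skin. Of 9 differentiated epidermis markers tested, 1 was called, Krt10, higher in fetal cells by 1.47 (Holm-adjusted p of 0.022), and its second probe differed by 0.98 with an adjusted p of 1. The summed signal of the list was 12.15, 11.86 and 11.87 in fetal and 11.76, 11.92 and 11.89 in adult replicates, so the groups overlapped. Sbsn was its brightest gene and differed by -1.51, against the direction of most of the list. With Benjamini-Hochberg adjustment 4 of the 9 passed as higher in fetal and 1 as higher in adult cells, and the groups did not overlap for 7 of the 9, against 69% of all probes tested. No adult array read Dsg1a or Ivl well above background. Krt1, Calm4 and Krtdap differed by 1.95, 3.47 and 4.11, without passing the Holm threshold (adjusted p of 0.16, 0.16 and 1). Of 7 fibroblast markers, Dcn (-3.78) and Pdgfrb (-4.34) were called lower in fetal cells, and the summed signal was 12.41, 12.49 and 12.78 in fetal and 13.97, 14.18 and 14.70 in adult replicates, with Col1a2 the brightest. Of 4 salivary and lacrimal markers tested, 2 were called higher in fetal cells, Aqp5 (5.79) and Smr3a, which was at least 271-fold higher, its signal standing clear of background on the 3 fetal arrays and on 0 adult arrays. Their summed signal was 13.94, 14.07 and 14.13 in fetal and 9.21, 9.24 and 8.71 in adult replicates, with Aqp5 the brightest. The other 2 tested differed towards adult cells, Amy1 by -1.19, which passed with Benjamini-Hochberg adjustment, and Bpifa2 by -0.43.

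The sort antigens served as a check of the labels. Epcam was 12.95, 13.08 and 12.88 in fetal and 11.31, 11.03 and 10.94 in adult basal replicates, a difference of 1.88 (Holm-adjusted p of 0.026) in the direction of the EpCAM++ and EpCAM+ gates. Pecam1 (CD31) and Ptprc (CD45) differed by -0.14 and -0.31 without passing the test. Both were well above background on all 3 arrays of each group. Their fetal and adult means were 9.10 and 9.25 for Pecam1 and 6.75 and 7.07 for Ptprc, so these readings did not show the depletion of CD31 and CD45 cells. No array read Enpep, which encodes BP-1, well above background.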

How the data were processed

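RNA of 3 fetal and 3 adult basal samples was labelled with Cy3 and hybridised to 6 Agilent SurePrint G3 Mouse GE arrays. Groups came from the sample titles. The authors scanned the arrays and extracted spot intensity in Feature Extraction (version 11.0.1.1); the deposited log2 table was quantile normalized by the authors in GeneSpring and served as an alternative. The design named mm9, so no gene coordinates are given for probes.

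Here the processed intensity, already background-subtracted, was taken as log2, with outlier and control spots left out (104 to 326 outlier spots of 59305 per array), averaged over 55681 probes and quantile normalized. Probes were matched by RefSeq accession (27235 probes, 20660 genes), since no gene symbols were in these files. Following the methods, probes in the lowest of 3 k-means clusters in both groups were left out, and limma 3.58.1 in R 4.3.3 was fitted to all 6 arrays with Holm adjustment. The cut was 5.949 in both groups, set against the log2 of a group's mean unlogged signal, and a probe reaching it in either group was kept. That mean can exceed the mean of log2 signals given here. The Adipoq probe, at mean log2 signals of 5.92 in fetal and 3.64 in adult cells, was thus tested. Its fetal replicates read 5.62, 3.99 and 8.17. Applied to all probes, the filter left 37830, more than the study kept. A gene was read through its brightest probe. Probe specificity was not checked.

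The members and lists were chosen with earlier results of these data known. Named genes were the 9 members, the members of the lists with the largest called differences or that are best known, the sort antigens and the 3 genes most like the called member with the largest difference. The fit was first tested on simulated data. A probe clear of background in 1 group only has a bound, set against the lowest signals well above background on the arrays of the other group. Promoter windows and the gene order came from RefSeq (GRCm38.p6). The 18 alternatives covered normalization, background, offset, filter, gene match, adjustment, variance, probe averaging, replicate block, slide and leaving out each array. Each slide held both groups (1 fetal with 2 adult arrays, and 2 fetal with 1 adult). Methods and labels name different labelling kits, so the priming of the RNA is not settled.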

Additional observations from a re-analysis of the deposited data

How the results depend on the processing

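Dsc2 was called in all 18 alternatives, with differences from 2.72 to 4.32 and adjusted p of at most 0.021. No desmosome gene changed direction under any alternative. The number of the 9 genes called was 2 in the main analysis, 5 with Benjamini-Hochberg adjustment, and 1 without the low-signal filter, with the replicate block, with slide as a block and without any 1 array (range 1 to 1); in each of these single cases the gene was Dsc2. In 5 further alternatives (75th percentile, normexp, offset of 16, trend and robust variance, mean of a gene's probes) the number stayed at 2 but the genes were Dsc2 and Dsp, and under normexp and the offset of 16 Dsc3 and Dsg3 fell below the filter and were not tested. The number of probes called was 2270, against 1182 without the low-signal filter, which raised the probes tested to 27235, 6133 with Benjamini-Hochberg adjustment, 1302 with the replicate block and 948 to 1949 when 1 array was left out. With the replicate block the adjusted p was 0.0066 for Dsc2, 0.34 for Dsg3 and 0.95 for Dsp; samples sharing a number did not deviate together (correlations of -0.03, 0.09 and 0.05), so the numbers were not treated as pairs. With slide as a block the adjusted p was 0.0064 for Dsc2, 0.13 for Dsg3 and 0.43 for Dsp. The Dsg3 over Dsg2 ratio difference was 1.28 under normexp and 1.82 with an offset of 16, against 2.12; the cause was not tested. All 6 arrays read 8 of the 9 genes well above background, and the brightest Dsc3 probe was read so on 2 of 3 adult arrays.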

Other observations

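Markers of other cell types outside the comparisons above were measured on the same arrays. None of 5 hair follicle markers tested was called in limma with Holm adjustment through its brightest probe (1 passed with Benjamini-Hochberg adjustment, 3 had an unadjusted p under 0.05). Trps1 differed by 1.54 on its brightest probe (Holm-adjusted p of 0.34) and by 1.80 on a probe that was called. None of 7 leukocyte, 4 endothelial or 5 adipocyte markers was called in limma with Holm adjustment; 2, 2 and 0 of them passed with Benjamini-Hochberg adjustment, all higher in adult cells, and 3, 2 and 2 had an unadjusted p under 0.05, which 64.7% of all probes tested reached. Cd74, the invariant chain, had a difference of -2.79 and Cdh5, an endothelial cadherin, of -2.70. A second probe of Adgre1, a macrophage marker, was at least 24.0-fold higher in adult cells (Holm-adjusted p of 1), being well above background on 3 of 3 adult and 0 of 3 fetal arrays, while the brightest probe differed by -0.42. The summed adipocyte signal, given as log2, was 10.18, 9.99 and 11.28 in fetal and 11.05, 10.93 and 11.18 in adult basal replicates with Fabp4 the brightest gene, so fetal replicate 3 was the highest of the fetal arrays and read above the 3 adult arrays. Without fetal replicate 3, 1 of the 9 desmosome genes was called, Dsc2, and Dsg3 was not (adjusted p of 0.26).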
